A study of Homo sapiens with 2 samples.

Results

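The genes described here encode the nuclear subunits of the 5 oxidative phosphorylation complexes. They were compared between SAS cells, a line from a human squamous carcinoma of the tongue, and eSAS cells, the population left after 5 rounds in which SAS cells forming large spheroids were caught on a removable filter and grown on. Both populations carry no further allele or agent in the labels. Whether the eSAS cells on the array were a pool or grown from a single cell is not given there. Total RNA of cells in log growth was labelled with Cy3 and hybridised to a 1-colour whole-genome oligonucleotide array, 1 array of each population. With a single array of each population, the differences carry no replicate error and no test or p-value accompanies them.

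Members were the transcripts on the array whose listed name begins with NDUFA, NDUFB, NDUFC, NDUFS or NDUFV, with COX4 to COX8, with UQCR or with ATP5 and a letter, together with SDHA to SDHD. This gave 85 of the 30484 gene names on the array, with 124 probes. Of the 85, 74 are subunits, 6 are alternative isoforms of complex IV subunits, 2 (NDUFAF1 and NDUFA12L) are assembly factors of complex I, and 3 match the name pattern but are not subunits (COX7A2L, ATP5S and COX4NB). Array names are kept, and 21 genes have a different current symbol. For example, ATP5A1, ATP5B and ATP5C1 are now ATP5F1A, ATP5F1B and ATP5F1C, and NDUFA4 is counted here with complex IV, where it is now placed.

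Oxidative phosphorylation passes electrons from NADH through complex I, and from succinate through complex II, to coenzyme Q, complex III, cytochrome c and finally oxygen at complex IV. Complexes I, III and IV pump protons across the inner mitochondrial membrane, and complex V, the ATP synthase, makes ATP as protons flow back. Most subunits are encoded in the nucleus, on many chromosomes, and are built together with a small set encoded by mitochondrial DNA. These genes are expressed in nearly all human cells, and carcinoma cells in culture commonly run the respiratory chain and glycolysis side by side.

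Values are the processed signal of the scanner software, in arbitrary intensity units, and the log2 ratio of eSAS over SAS after each array was scaled to its 75th percentile (1242 for SAS and 1196 for eSAS). A gene's ratio is the mean over those of its probes that stood well above background in both populations and carried no mark for uneven spots. By this rule 81 of the 85 members and 19467 genes in all were measured. Spots of one probe printed in several places on the arrays differed in their log2 ratio with an SD of 0.07 (211 probes), and different probes of one member differed with an SD of 0.15 (33 members with several measured probes), or 0.06 over the 24 members with several probes above a signal of 1000 on both arrays. These are technical spreads within the 2 arrays and leave out the variation between cultures. Of the squamous markers listed on the array, 8 of 8 were well above background in both populations, and all 8 were lower in eSAS, with log2 ratios from -3.90 to -0.46. None of 6 fibroblast markers and none of 3 muscle markers was measured in both populations. Of 4 endothelial markers VWF was, of 4 leukocyte markers CD14 and of the 1 adipocyte marker on the array ADIPOQ, with log2 ratios of -0.10, 0.17 and -0.03.

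Most oxidative phosphorylation genes lay slightly lower in eSAS than in SAS. The median log2 ratio of the 81 measured members was -0.07, a ratio of 0.950, with the middle 50% between -0.15 and -0.01, while the median of all measured genes was -0.00. The ratio was below 0 in 64 of 81 members (79.0%), against 50.2% of all genes. This count moves with the scaling: 17 members were above 0 here, 7 without scaling and 29 with each array centred on its median. The median of the members less that of all genes stayed below 0 under every alternative tried. Leaving out the scaling or centring on the median shifts a whole array and cannot change this value. The differences were small for single genes. Relative to the median of all genes, 19 members were lower and 4 higher by more than 0.15 on the log2 scale, which is 2 SD of replicate spots. The middle 50% of all genes lay between -0.14 and 0.13, so differences near this size were common among all genes too. The share of all genes past 0.15 was not counted.

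No member was at least 1.5-fold higher in eSAS, where 3.19% of all genes were, and 1 member, NDUFA1, was at least 1.5-fold lower, where 4.99% of all genes were. Beyond 0.32 on the log2 scale, a smaller difference, 1 member was higher (9.17% of all genes) and 5 were lower (11.9% of all genes). The 1 higher was COX6B2, and the 5 lower were NDUFA1, COX7B, NDUFB11, ATP5G3 and NDUFA10. At 2-fold no member was higher (1.01% of all genes) or lower (1.37% of all genes). The share of members past each of these folds was below that of all genes. Most members are bright, and few bright genes of any kind passed these folds. Of the 1947 brightest measured genes, 29 were higher and 108 lower beyond 0.32, and 6 and 31 at 1.5-fold. Of the 57 members among them, 0 were higher and 2 lower beyond 0.32, and 0 and 1 at 1.5-fold.

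**Figure D1:**
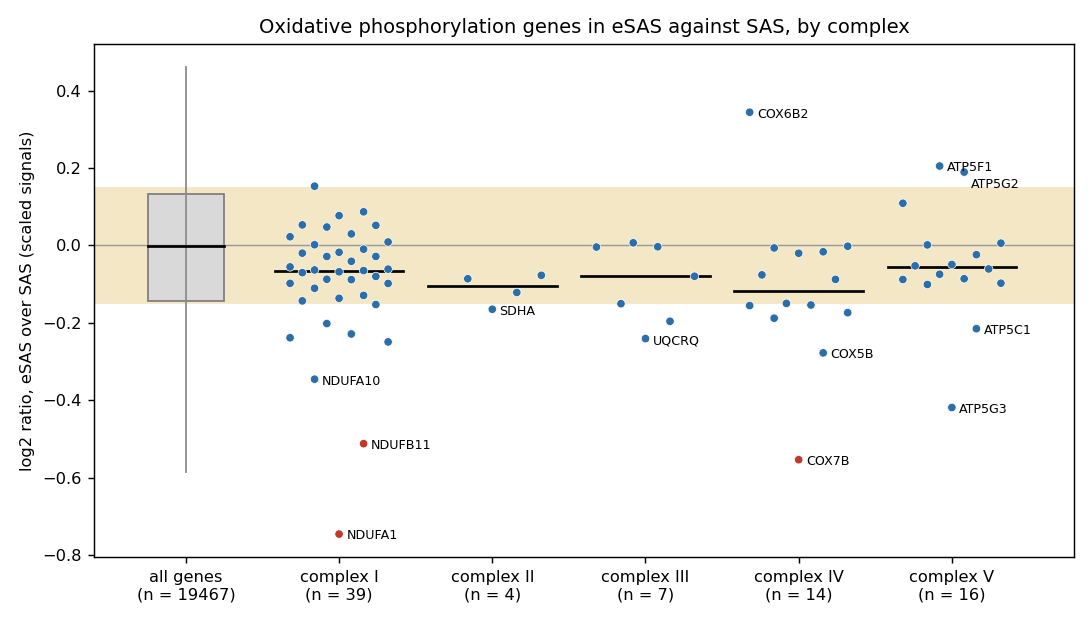
Log2 ratio of eSAS over SAS (vertical axis, scaled signals) for each measured member of complexes I to V, 1 point per gene, with members on chromosome X in red and the median of each complex as a black line. The grey box gives the middle 50% of all 19467 measured genes, its line the 5th to 95th percentile, and the yellow band 2 SD of replicate spots on either side of 0; all 5 complex medians lie below 0, and the 3 lowest points are NDUFA1, COX7B and NDUFB11.

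The 3 members with the lowest ratios were the 3 encoded on the X chromosome: NDUFA1, COX7B and NDUFB11. This grouping by chromosome was chosen after the values were seen. NDUFA1 is a small membrane-arm subunit needed for assembly of complex I. Its first probe (chromosome X from 118891323 to 118891382 of hg18) had a signal of 55280 in SAS and 31046 in eSAS, a ratio of 0.583. Its second probe (from 118891358 to 118894537) had 38295 in SAS and 22489 in eSAS, a ratio of 0.610. The mean log2 ratio was -0.75, and the 2 probes lay closer to each other than to any other member of complex I.

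NDUFB11 is a further membrane-arm subunit of complex I. Its only probe (chromosome X from 46886990 to 46887049) had a signal of 53466 in SAS and 36100 in eSAS, a log2 ratio of -0.51. COX7B is a small subunit of complex IV. Its bright probe (chromosome X from 77044860 to 77044919) had a signal of 38099 in SAS and 23660 in eSAS, a log2 ratio of -0.63. A dim probe of COX7B gave 90.1 in SAS and 62.4 in eSAS, a log2 ratio of -0.47. Taken by its bright probe alone, COX7B was also at least 1.5-fold lower. Both COX7B probes lay in rows 450 to 510 of the array, which held 11.5% of the probe spots and 196 of the 267 spots marked as uneven in SAS, while the NDUFA1 and NDUFB11 probes lay elsewhere. The part of this stretch in the COX7B value was not tested.

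The X chromosome as a whole was lower in eSAS. The median log2 ratio of its 632 measured genes was -0.48, and 62.8% of them were lower by at least 0.32 on the log2 scale, against 10.2% of the genes placed on other chromosomes. Chromosome 13, which holds no member, had a median of -0.31 over 343 genes, and the remaining 21 autosomes had medians between -0.05 and 0.03. Within the X chromosome NDUFA1 lay in the lowest 25% of genes, which ended at -0.71, and COX7B and NDUFB11 lay nearer the median. Of the 632 X genes, 136 had a lower ratio than NDUFA1, 268 a lower ratio than COX7B and 300 a lower ratio than NDUFB11. The 20 nearest other measured X genes had a median log2 ratio of -0.77 around NDUFA1, -0.76 around COX7B and -0.36 around NDUFB11. Relative to the median of the X chromosome, NDUFB11 was at -0.04, COX7B at -0.08 and NDUFA1 at -0.27. The cause of the lower X chromosome was not tested, and the arrays measured RNA alone.

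**Figure D2:**
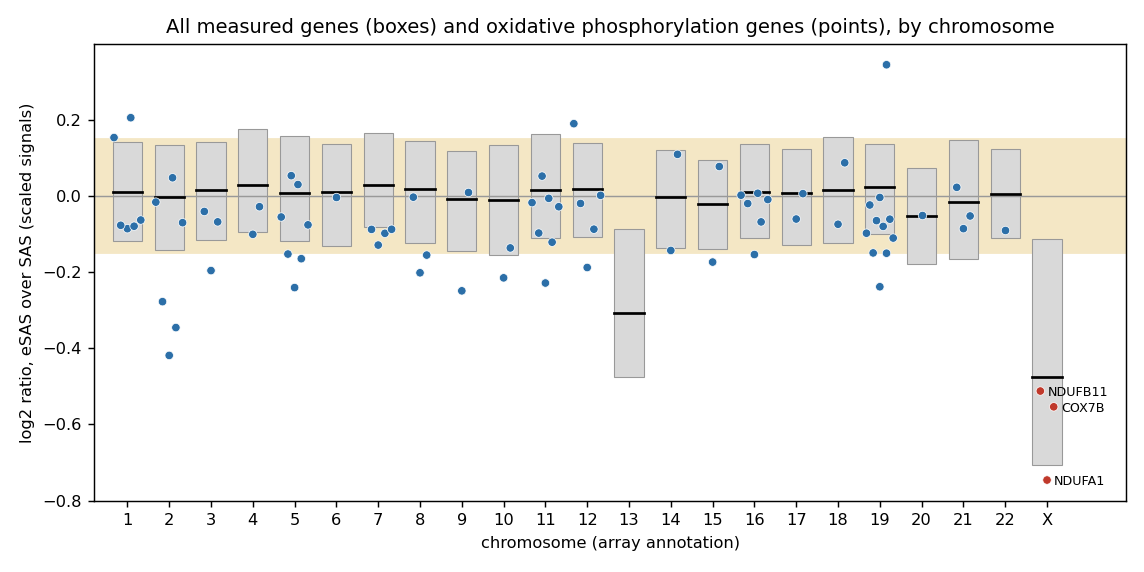
Log2 ratio of eSAS over SAS (vertical axis) by chromosome as the array annotates it (horizontal axis). Grey boxes give the middle 50% and black lines the median of all measured genes of a chromosome, points are members, and members on X are red; the X median is -0.48 and the chromosome 13 median -0.31, while the other 21 lie between -0.05 and 0.03.

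Without the 3 X-linked genes, the remaining 78 measured members still had a median log2 ratio of -0.07, and 61 of the 78 (78.2%) were below 0. When each gene was set against the median of its own chromosome, the median of the 81 members was -0.08 and 67 of 81 were below 0. Both values were computed after the data were seen. The general small difference was therefore present in members of many chromosomes. On chromosome 19, which holds 11 measured members, their median was -0.08 and that of all its genes 0.02. On chromosome 11 the 7 members had a median of -0.03 and all genes 0.01, and on chromosome 5 the 7 members had -0.08 and all genes 0.01.

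The promoter sequences of the 3 X-linked genes are shown because these members were lower together with their chromosome, and those of COX5B and ATP5G2 (now ATP5MC2) because they were the lowest and the highest of the autosomal members with a single probe. Each is the 250 bases before the annotated start, 5′ to 3′ on the gene's strand, from RefSeq on GRCh38.p14. Capitals mark matches on either strand to 4 motifs: CGCATGCG (the core bound by NRF1), CCGGAAG (the ETS motif bound by GABPA), AAGATGG (the core bound by YY1) and CCAAT.
NDUFA1, chrX:119871582-119871831, plus strand: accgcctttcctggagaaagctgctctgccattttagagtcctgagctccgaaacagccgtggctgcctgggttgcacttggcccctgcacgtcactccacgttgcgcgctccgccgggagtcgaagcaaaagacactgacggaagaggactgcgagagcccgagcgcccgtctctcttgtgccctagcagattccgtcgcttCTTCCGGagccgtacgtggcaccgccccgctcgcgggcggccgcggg
NDUFB11, chrX:47144703-47144952, minus strand: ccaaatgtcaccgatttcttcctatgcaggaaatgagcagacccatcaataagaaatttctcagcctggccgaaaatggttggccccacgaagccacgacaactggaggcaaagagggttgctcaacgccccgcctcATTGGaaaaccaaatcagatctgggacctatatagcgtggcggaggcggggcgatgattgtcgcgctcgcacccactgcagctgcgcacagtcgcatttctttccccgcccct
COX7B, chrX:77899218-77899467, plus strand: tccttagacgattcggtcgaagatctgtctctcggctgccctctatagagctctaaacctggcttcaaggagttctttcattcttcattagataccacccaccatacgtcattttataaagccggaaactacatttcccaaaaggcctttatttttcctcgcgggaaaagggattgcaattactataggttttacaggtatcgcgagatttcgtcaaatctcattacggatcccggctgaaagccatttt
COX5B, chr2:97645812-97646061, plus strand: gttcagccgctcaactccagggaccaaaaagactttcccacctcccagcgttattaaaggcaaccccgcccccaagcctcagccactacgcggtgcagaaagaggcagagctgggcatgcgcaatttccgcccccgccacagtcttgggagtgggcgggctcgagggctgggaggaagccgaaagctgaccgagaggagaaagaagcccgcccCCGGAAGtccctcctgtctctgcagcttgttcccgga
ATP5G2, chr12:53676084-53676333, minus strand: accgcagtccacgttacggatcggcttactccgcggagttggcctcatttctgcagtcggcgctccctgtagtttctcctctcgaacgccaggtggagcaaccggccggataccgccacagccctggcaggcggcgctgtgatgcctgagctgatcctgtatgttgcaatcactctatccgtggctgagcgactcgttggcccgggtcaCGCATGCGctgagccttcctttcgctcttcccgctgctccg

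The 3 X-linked promoters shared none of the 4 motifs: NDUFA1 held CCGGAAG, NDUFB11 held CCAAT and COX7B held none of these letters. Of the 85 members, 70 had a promoter entry, 62 of them subunits. CGCATGCG was found in 9 of the 62 subunit promoters (14.5%) and in 1.73% of all 35116 promoters of the same length. CCGGAAG was found in 16 (25.8%) and in 8.52% of all. AAGATGG was found in 4 (6.45%) and in 3.70% of all, and CCAAT in 17 (27.4%) and in 32.0% of all. These matches are a description of the letters in the window. The 9 subunits with CGCATGCG included both the higher ATP5G2 (log2 ratio 0.19) and the lower ATP5C1 (-0.22).

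Complex I had 39 measured members of 39, with a median log2 ratio of -0.07, and 29 of them (74.4%) were below 0. The hydrophilic arm of this complex oxidises NADH in its N module and reduces coenzyme Q in its Q module, and the membrane arm carries the proton channels. The 8 N-module subunits had a median of 0.03, with 5 above 0. The 9 Q-module subunits, the acyl carrier NDUFAB1 among them, had a median of -0.03, with 2 above 0. The 20 membrane-arm subunits had a median of -0.09, with 2 above 0. The difference between the modules was not tested, since 1 array of each population gives no error for it.

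Among the catalytic subunits, NDUFV1, which binds the flavin and NADH, had a signal of 30047 in SAS and 29992 in eSAS, a log2 ratio of 0.05. NDUFV2, an iron-sulphur protein beside it, had 21151 in SAS and 21630 in eSAS, a log2 ratio of 0.09. Both differences lay within 2 SD of replicate spots. Other iron-sulphur and core subunits were near 0 or slightly below it, with -0.07 for NDUFS1, -0.03 for NDUFS3, -0.10 for NDUFS7 and -0.02 for NDUFS8. The assembly factors were similar, with 0.08 for NDUFAF1 and -0.06 for NDUFA12L (now NDUFAF2).

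After the X-linked pair, the lowest subunits of complex I were all in the membrane arm. NDUFA10 had a mean log2 ratio of -0.35, but its probes differed, from 2709 in SAS and 1821 in eSAS (-0.52) to 678 and 579 (-0.17). Both NDUFA10 probes lay in rows 450 to 510 of the array, so no probe of the gene outside that stretch was available. NDUFA8 followed with 39027 in SAS and 31618 in eSAS, a log2 ratio of -0.25. NDUFA13, also known as GRIM19, had 19958 in SAS and 16290 in eSAS, a log2 ratio of -0.24. NDUFC2 was at -0.23, the mean of a bright probe at -0.15 and a dim one at -0.31 that lay in rows 450 to 510. NDUFB9 was at -0.20, with 2 probes below 0.

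**Figure D3:**
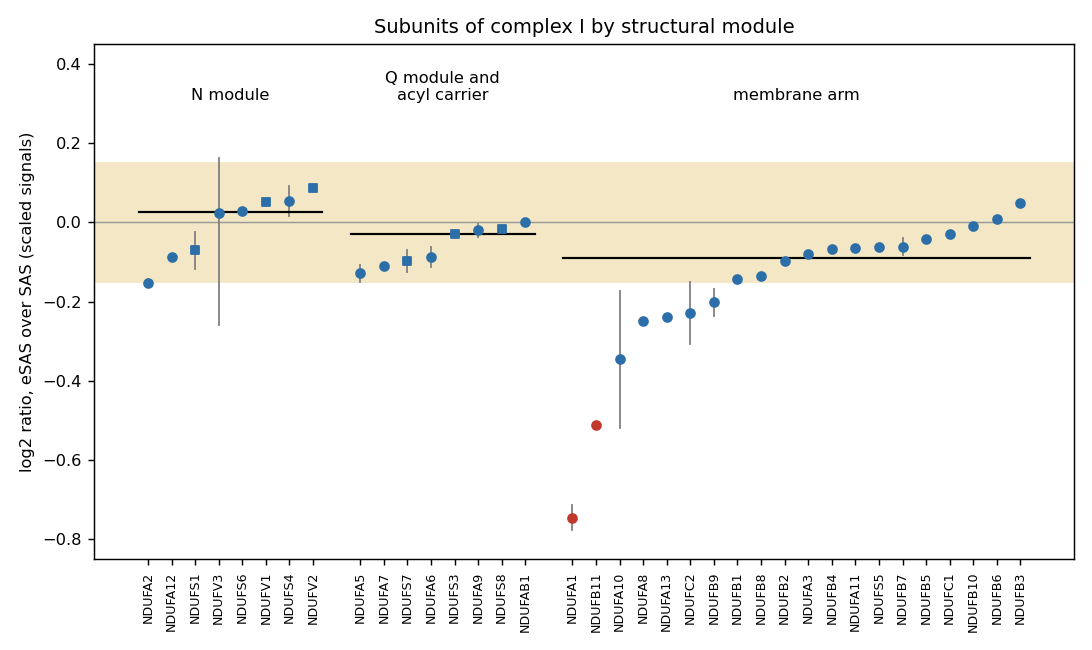
Log2 ratio of eSAS over SAS (vertical axis) of complex I subunits, ordered within the N module, the Q module with the acyl carrier, and the membrane arm. Squares are core subunits and circles accessory ones, red marks chromosome X, grey lines join the lowest and highest probe of a gene, and black lines are medians over all measured subunits of a module, at 0.03, -0.03 and -0.09; the yellow band is 2 SD of replicate spots on either side of 0.

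Complex II, succinate dehydrogenase, links the tricarboxylic acid cycle to the respiratory chain, and all 4 of its subunits were below 0, with a median of -0.10. The flavoprotein SDHA had 12917 in SAS and 10945 in eSAS with its brighter probe, and the mean of 2 probes was a log2 ratio of -0.16. The iron-sulphur protein SDHB had 9285 in SAS and 8422 in eSAS, a log2 ratio of -0.09. The membrane anchors were at -0.08 for SDHC and -0.12 for SDHD, whose 4 probes ranged from -0.26 to -0.05. SDHA alone of the 4 lay beyond 2 SD of replicate spots.

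Complex III had 7 measured members, with a median of -0.08, and 6 were below 0. UQCRQ, a small accessory subunit, was lowest with 119551 in SAS and 97430 in eSAS, a log2 ratio of -0.24. The core protein UQCRC1 had 13542 in SAS and 11383 in eSAS, a log2 ratio of -0.20, while its partner UQCRC2 had 9905 and 9583, a log2 ratio of 0.01. The Rieske iron-sulphur protein UQCRFS1 was at -0.15 over 2 probes. UQCRH was at -0.08, and UQCRB and UQCR (now UQCR11) were at -0.00. Each core protein was measured by 1 spot.

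Complex IV, cytochrome c oxidase, had a median of -0.12 over 14 measured members, with 13 below 0. Relative to the median of all genes the complexes ran from -0.06 in complexes V and I to -0.12 in complex IV, and this order was not tested. Without COX7B complex IV was at -0.09 and complex II, at -0.10, was lowest, as it also was with quantile normalization (-0.11 against -0.09). Apart from COX7B, the lowest member was COX5B, an accessory subunit on the matrix side, with 83319 in SAS and 66188 in eSAS, a log2 ratio of -0.28. COX6A1 had 115692 in SAS and 97793 in eSAS, a log2 ratio of -0.19. COX5A, COX6C, COX4I1 and COX6B1 lay between -0.17 and -0.15. COX7A2 (-0.00) and COX8A (-0.01) were the highest of the usual subunits. All 10 nuclear accessory subunits of the list were below 0 in the main setting. With each array centred on its median, COX7A2 and COX8A were each at 0.03.

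Isoforms of complex IV subunits, which replace the usual form in certain tissues, were mostly not well above background. COX4I2, the isoform of lung and of low oxygen, had signals of 15.9 in SAS and 13.8 in eSAS and was not well above background on either array, whereas COX4I1 had 39517 and 34783. The muscle isoform COX7A1 (4.05 in SAS and 4.67 in eSAS), the testis isoform COX7B2 (2.94 and 3.45) and NDUFA4L2 (3.1 and 5.62) were also not well above background on either array, so no ratio is given. Their counterparts COX7A2, COX7B and NDUFA4 were all measured, the last at a log2 ratio of -0.09.

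A pair of isoforms was measured. COX6A2, the form of heart and skeletal muscle, had a signal of 18113 in SAS and 17199 in eSAS, a log2 ratio of -0.02, on 1 probe. The muscle markers MYH7, ACTN2 and CKM were not well above background on both arrays. COX6B2, the testis form, was dim, with 118 in SAS and 148 in eSAS on its brighter probe and 32.7 and 38.9 on the other. Its mean log2 ratio of 0.34 was the highest of the members as measured here. Under normexp, a background correction that here also adds 50 units to each signal, it was 0.12, below ATP5G2 at 0.22. COX6B2 had no value when only probes at least 10 times the lowest signal well above background were kept. Its usual counterpart COX6B1 was at -0.15. Genes of the dimmest signals had a wider spread in general, as the plot of ratio against brightness shows.

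Complex V, the ATP synthase, had 16 measured members, with a median of -0.06, and 11 were below 0. The catalytic beta subunit ATP5B had 22757 in SAS and 21933 in eSAS, a log2 ratio of 0.00, and the alpha subunit ATP5A1 had 39147 and 35799, a log2 ratio of -0.07. The gamma subunit ATP5C1, the central shaft, was lower, with 7993 in SAS and 6630 in eSAS, a log2 ratio of -0.22. Of the genes for the rotating c ring, ATP5G2 was at 65596 in SAS and 72029 in eSAS, a log2 ratio of 0.19, and ATP5G1 was at 0.01. The third, ATP5G3, showed how far a dim probe can carry a mean. Its bright probe had 136601 in SAS and 126481 in eSAS, a log2 ratio of -0.06, its dim probe 150 and 84.0, a log2 ratio of -0.78, and the mean was -0.42.

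The same held for ATP5F1, the b subunit of the peripheral stalk (now ATP5PB). Its bright probe had 23426 in SAS and 20936 in eSAS, a log2 ratio of -0.11, and its dim probe had 25.5 and 35.2, a log2 ratio of 0.52, so that the mean of 0.20 had the sign of the dim probe. ATP5G3 and ATP5F1 were the 2 members whose probes lay more than 0.5 apart on the log2 scale. ATP5I, a membrane subunit, was at -0.10, and ATP5S, a gene now named DMAC2L and not a subunit of the enzyme, was at 0.11. COX4NB, now EMC8 and unrelated to complex IV, was at -0.07. NDUFV3 of complex I also had probes on both sides of 0, with 2 bright probes at 0.16 and a dimmer one at -0.26.

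For a pair of members a spot was marked as uneven on the SAS array and left out. The third COX4I1 probe had 407 in SAS and 527 in eSAS, a log2 ratio of 0.43, against -0.13 and -0.18 for the other probes. The third NDUFA12L probe had 3441 in SAS and 4586 in eSAS, a log2 ratio of 0.47, against -0.04 and -0.07. With the marked spots kept, COX4I1 turned from -0.15 to 0.04 and NDUFA12L from -0.06 to 0.12. Probe sequences were not used here, and some members (SDHA and UQCRH among them) have near-identical copies elsewhere in the genome, so signal from copies cannot be told apart from the gene's own.

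**Figure D4:**
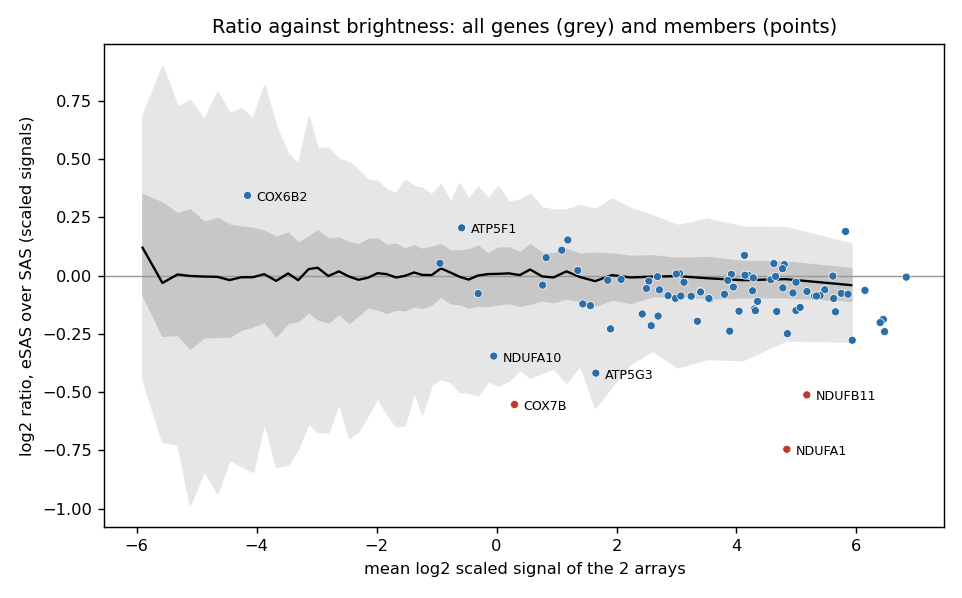
Log2 ratio of eSAS over SAS (vertical axis) against the mean log2 scaled signal of the 2 arrays (horizontal axis). The black line and the grey bands give the median, the middle 50% and the 5th to 95th percentile of all genes in 50 groups of equal size by brightness, points are members and red marks chromosome X; most members are bright, and most lie below the median of genes of like brightness.

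Members were bright genes, and ratios of bright genes were slightly below 0 in general. Of the 81 measured members, 57 were among the 1947 brightest of all measured genes. In that group the median log2 ratio of all genes was -0.02 and 57.5% were below 0, while the 57 members there had a median of -0.08 and 47 of them (82.5%) were below 0. In the 390 brightest genes the median was -0.04. When each member was set against the median of its own group of genes of like brightness, the median of the members was -0.05 and 59 of 81 were below it. The part of brightness in the members' difference was not tested further.

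Other genes of mitochondrial energy metabolism were taken from lists, which were drawn up with earlier results of these arrays known. Of the subunits and carriers that the name pattern misses, 6 were measured, with a median of -0.06 and 4 below 0. UCRC, now UQCR10 of complex III, was lowest at -0.23 (41486 in SAS and 36987 in eSAS on its brightest probe), and C14orf2, a small ATP synthase subunit, was highest at 0.05. Mitochondrial DNA encodes core subunits of complexes I, III, IV and V, and 6 of its genes were on the array. Their median was 0.00, with 3 below 0, and they ran from -0.43 for ND6 (568 in SAS and 407 in eSAS) to 0.38 for ND1 (13045 and 16387). The probe listed as COX1 is placed by the array on chromosome 1, not on mitochondrial DNA.

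Assembly factors, 23 measured of 23 on the array, had a median of 0.03 and 8 below 0. They ran from -0.29 for ATPAF1, which assembles the F1 part of ATP synthase, to 0.35 for COX18, which inserts a complex IV subunit. Both extremes rested on discordant probes, at -0.13 and -0.45 for ATPAF1, the lower one dim and in rows 450 to 510, and at 0.10 and 0.59 for COX18. By the brightest probe ATPAF1 was at -0.13 and COX18 at 0.10. The 11 genes of coenzyme Q synthesis had a median of 0.00, with 4 below 0, from -0.20 for COQ10A to 0.15 for COQ10B. The 75 measured mitochondrial ribosomal proteins had a median of 0.00, with 36 (48.0%) below 0, from -0.30 for MRPS31 on chromosome 13 to 0.33 for MRPS30. The medians of these 3 lists lay close to that of all genes.

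The 18 genes of the tricarboxylic acid cycle and pyruvate dehydrogenase had a median of 0.00, with 9 below 0, and 2 were at least 1.5-fold lower. PDHA1, the X-linked alpha subunit of pyruvate dehydrogenase, had 26243 in SAS and 14830 in eSAS, a log2 ratio of -0.77, the lowest of the list. SUCLA2, a succinyl-CoA synthetase subunit on chromosome 13, had a log2 ratio of -0.66, with 2239 in SAS and 1405 in eSAS on its brightest probe, which lay in rows 450 to 510. It was no longer 1.5-fold lower with median pixels (-0.52), with no background correction (-0.49) or under normexp (-0.33), while PDHA1 was under each of these. IDH3G, the X-linked gamma subunit of isocitrate dehydrogenase, had 1973 in SAS and 1427 in eSAS, a log2 ratio of -0.41. The 3 lowest genes of the cycle thus lay on the same 2 chromosomes whose genes were lower as a whole. DLST, the succinyl transferase of the oxoglutarate dehydrogenase complex, was highest at 0.21.

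Regulators of mitochondrial biogenesis, 15 measured of 16 on the array, had a median of 0.05 and 6 below 0. PPARGC1B, a coactivator of respiratory genes, was lowest, with 215 in SAS and 126 in eSAS, a log2 ratio of -0.72. Its single probe lay in rows 450 to 510 of the array. The ratio was -0.51 with no background correction and -0.26 under normexp, so it was then less than 1.5-fold lower. Normexp as used here subtracts a modelled background, adds 50 units to each signal and is followed by quantile normalization. The added units draw the ratios of dim genes toward 0. Of all 19467 genes, 218 were at least 1.5-fold lower under normexp, against 972 in the main setting. PPARGC1A, a relative of PPARGC1B, was not well above background on both arrays. TFB1M, a methyltransferase of mitochondrial ribosomal RNA, was highest, with 1735 in SAS and 2549 in eSAS, a log2 ratio of 0.61 on 1 measured probe. It was less than 1.5-fold higher under normexp (0.51) and without scaling (0.56). The factors named with their motifs in the promoter search were near 0, with -0.01 for NRF1, -0.08 for GABPA and -0.01 for YY1. No value is given for a factor of the CCAAT motif. The mitochondrial transcription factor TFAM was at -0.09.

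**Figure D5:**
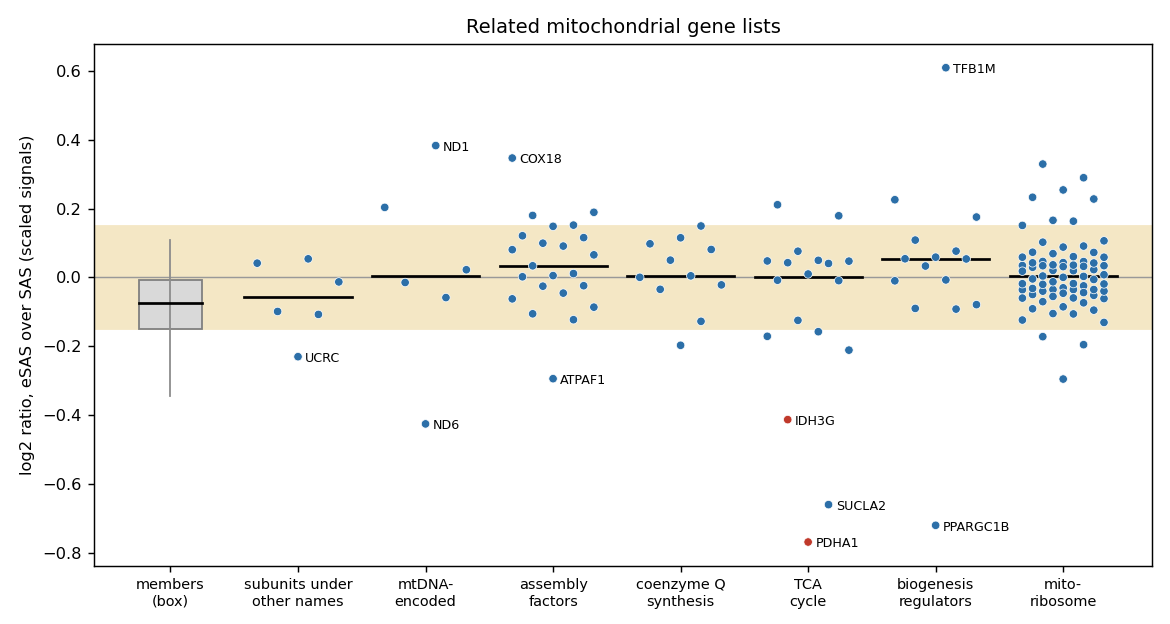
Log2 ratio of eSAS over SAS (vertical axis) of the genes of 7 related lists, 1 point per gene with the list median as a black line, beside the members as a box (middle 50%, line from the 5th to the 95th percentile). Red marks chromosome X and the yellow band 2 SD of replicate spots on either side of 0; the medians of the lists run from -0.06 to 0.05, and the genes furthest from 0 are PDHA1, PPARGC1B, SUCLA2 and TFB1M.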

How the data were processed

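Gene expression in SAS and eSAS cells was measured on 2 arrays, 1 of each population. The authors deposited scanner files (Agilent Feature Extraction 10.7.3.1, per the submitters' processing notes), whose intensity values are linear, background-corrected and detrended within the array, and not scaled between arrays. Flags for spots well above background, uneven spots and spot positions (other columns, no measurements) were used as deposited. The authors' series table was equal to the processed signal at all 45015 spots within 0.01 percent. The array procedure is given only by reference to earlier work.

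Processed signals were turned to log2 and the array's 75th percentile over 43376 non-control spots was subtracted. Of these spots, 69.4% in SAS and 67.5% in eSAS were well above background, and 267 and 86 were marked as uneven; none was saturated. Marked spots were left out. Replicate spots were averaged per probe and probes per gene name. The number of arrays limits the precision, and no test was made. Members and lists were chosen with earlier results of these data known. Named genes were the 3 highest and 3 lowest of each complex, members past 1.5-fold, isoforms with their counterparts, core subunits, members with discordant probes or marked spots, and the extremes of each list. A result for 1 gene that meets this rule is not reported here, although counts and medians include it. Genes named outside this rule (NDUFA8, NDUFA13, NDUFC2, NDUFB9, COX5A, COX6C, IDH3G, SUCLA2, NRF1, GABPA, YY1, TFAM and others given in runs) were chosen after their values were seen. Current symbols of all 85 members came from RefSeq accessions. Alternatives covered scaling, background correction, filters, marked spots, array rows and probe summary. Python 3.11.15 and R 4.3.3 with limma 3.58.1 (quantile normalization, and normexp with an offset of 50 followed by it) were used, and the counting was tested on simulated data.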

Additional observations from a re-analysis of the deposited data

How the results depend on the processing

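For the medians of the members and the 5 complexes and for their counts, 162 values were recomputed. Of these, 154 stayed within the SD of replicate spots (medians) or within 1.5 times (counts). That SD was 0.07, as large as the median of the members at -0.07, so staying within it does not show a stable median. No scaling, centring on the median and the series table could not change a median less that of all genes. No median changed sign. The median of the members less that of all genes ran from -0.13 to -0.05, that of complex I from -0.12 to -0.06, complex II from -0.16 to -0.08, complex III from -0.14 to -0.05, complex IV from -0.15 to -0.08 and complex V from -0.11 to -0.03. The number of members above 0 was 17 here, 7 with no scaling and 29 with centring on the median. The number at least 1.5-fold lower was 1 here, 2 with no scaling, 2 with probes at least 10 times the lowest signal well above background and 2 with the brightest probe. It was 0 without the 3 members on X and 0 with each gene less the median of its chromosome, both chosen after the data were seen. The number at least 1.5-fold higher was 0, and 1 with no filter on dim probes.

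Of 926 values of named genes, 57 moved by more than the SD of replicate spots, most often under normexp (14), with no background correction (9) and with normexp without spots of uneven local background (9, chosen after the data were seen). ATP5F1 was at -0.11 by its brightest probe, which leaves out its dim probe at 0.52. COX6A1 was at 0.15 with no filter on dim probes. Its mean then took in a probe not well above background, with 7.29 in SAS and 9.84 in eSAS, a log2 ratio of 0.49. The cause of the other moves was not tested. Leaving out rows 450 to 510 left 76 of 81 members, since COX7B, NDUFA10, UQCR, COX7A2 and NDUFS5 have all their probes there, and complex III was then at -0.13. A slide term could not be fitted with 2 arrays. No paired analysis was possible because each population had a single array. Dim probes limit what can be said of isoforms: 4 members were not well above background.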
